A study of Mus musculus with 97 samples.

Results

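The HoxC cluster holds 9 protein-coding homeobox genes on mouse chromosome 15: Hoxc4, Hoxc5, Hoxc6, Hoxc8, Hoxc9, Hoxc10, Hoxc11, Hoxc12 and Hoxc13. The 9 genes were taken by symbol from a deposited expression table, and they are 9 of the 37810 genes that have values there. Levels are given as RPKM, in which a gene's reads are divided by its length in kilobases and by the library's total in M (mega) reads. The table covers 28 mouse libraries on the C57BL/6 background. Of these, 24 were made by TRAP, translating ribosome affinity purification, in which RNA is captured on ribosomes that carry the tagged protein eGFP-L10a in 1 cell type. The microglia, the resident macrophages of the brain, came from striatum or cerebellum of mice aged 3, 6 or 9 months.

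Each combination of region, age and genotype had 2 TRAP libraries. Libraries labelled Eed-ko came from mice of genotype Cx3cr1CreErt2/+(Litt);Eef1a1LSL.eGFPL10a/+;Eedfl/fl. Controls were Cx3cr1CreErt2/+(Litt);Eef1a1LSL.eGFPL10a/+;Eedfl/+, so they carried the same tamoxifen-dependent Cre and the ribosome tag, and also had 1 floxed Eed allele. All mice received tamoxifen at 4 to 6 weeks of age. Cre under Cx3cr1 also acts in other macrophages that use this gene, including those at the borders of the brain. The remaining 4 libraries were tissue RNA of 9-month controls, with 2 libraries per region. The labels' protocol gives the fraction that TRAP left unbound as the source of all 4, whereas the names of their columns carry UB for 1 library per region and IN for the other. Nothing in the labels says that the replicates of a group came from separate animals, so p-values measure the spread between these libraries, which may be technical. In the column names, all 3-month Eed-ko libraries carry 1 short string of bases and all 3-month controls carry another. The names of 6- and 9-month TRAP libraries have a different format. What these parts mean is not said. Genotype at 3 months, and 3 months against the later ages, cannot be told apart from them.

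Hox genes encode DNA-binding proteins that give cells their position along the head-to-tail axis of the embryo. Within a cluster, the genes sit in the order of the body levels at which they act, from Hoxc4 at the anterior end of the series to Hoxc13 at the posterior end. Cells of the forebrain normally keep these clusters silent. Eed belongs to the core of Polycomb repressive complex 2, whose enzymes Ezh1 and Ezh2 methylate histone H3 at lysine 27, and Hox clusters are classic targets of that mark. The comparison between Eed-ko and control libraries asks how microglial RNA differs when Eed is targeted in these cells.

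The order along the chromosome, taken from the RefSeq gene table of GRCm38.p6, ran Hoxc13, Hoxc12, the noncoding gene Hotair, Hoxc11, Hoxc10, the microRNA gene Mir196a-2, Hoxc9, Hoxc8, Hoxc6, Hoxc5, Mir615 and Hoxc4. Calcoco1 and Atp5g2 lie beyond Hoxc13, and Smug1, Cbx5, Hnrnpa1, Nfe2 and Copz1 lie beyond Hoxc4. Hoxc4, Hoxc5 and Hoxc6 lie next to each other, and long transcripts are known to run across these neighbours. How reads in shared or overlapping exons were assigned is not given in the sources used here, so the division of reads among Hoxc4, Hoxc5 and Hoxc6 is uncertain. The same holds for strand, since reads of a gene and of an antisense transcript cannot be told apart without it. The RefSeq promoter sequences used here had an entry for 1 of the 9 genes. It is shown because Hoxc4 reached the highest level of any HoxC gene in these libraries. The sequence is the 250 bases before the start of Hoxc4 on the + strand of GRCm38.p6, chr15:103034145-103034394, with each CG dinucleotide in capitals.
Hoxc4: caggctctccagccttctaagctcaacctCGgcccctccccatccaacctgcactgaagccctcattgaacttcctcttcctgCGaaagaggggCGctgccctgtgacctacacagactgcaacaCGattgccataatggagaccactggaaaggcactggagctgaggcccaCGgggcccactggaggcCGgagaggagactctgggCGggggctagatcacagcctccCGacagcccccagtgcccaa
These 250 bases hold 8 CG dinucleotides, which read the same on both strands, and 62% of the bases are G or C. Of 32851 mouse promoters of the same length, 43.0% held at least 8 CG, and the median was 6.

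Read totals recovered from the RPKM values ran from 21.7 to 187 M per TRAP library and from 21.5 to 59.5 M per tissue library. The Eed transcript was not lower in the libraries labelled Eed-ko. In striatum it lay between 18.2 and 37.7 RPKM there and between 13.4 and 30.7 RPKM in controls. In cerebellum it lay between 24.3 and 30.0 RPKM in Eed-ko libraries, above all controls, which lay between 17.3 and 24.1 RPKM. A whole-gene RPKM does not show which exons were removed, so these values do not check the deletion. Cx3cr1, the chemokine receptor that marks microglia, was higher in TRAP than in tissue RNA by 4.91 ± 0.37 (SE) on the log2(RPKM + 1) scale in striatum (adjusted p = 4.82e-05) and by 4.51 ± 0.37 in cerebellum (adjusted p = 0.000121). All 17 genes of the microglial list were higher in TRAP in both regions.

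HoxC RNA was found almost entirely in the 4 TRAP libraries of 9-month Eed-ko mice. Of 9750 HoxC reads over all 28 libraries, 9196 (94.3%) lay in those 4 libraries. The 8 Eed-ko libraries of 3 and 6 months together held 243 reads (2.49%), although their summed depth of 437 M reads exceeded the 363 M of the 9-month Eed-ko libraries. The 12 control TRAP libraries held 308 reads (3.16%) in 698 M. Tissue RNA held 3 reads in 169 M, all of them from Hoxc6 in 1 cerebellar library. Counts of reads without molecular identifiers are not counts of independent molecules, so limits from them cover counting error only.

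The 9 genes summed to 13.95 and 17.40 RPKM in the striatal 9-month Eed-ko libraries and to 4.44 and 6.76 RPKM in the cerebellar ones. All 4 control TRAP libraries of that age had 0 HoxC reads at depths of 21.7 to 107 M. The highest sums in any other library were 1.42 RPKM in cerebellar 3-month Eed-ko replicate 1 and 1.34 RPKM in cerebellar 6-month control replicate 2. The 4 highest sums of the series are therefore the 4 libraries of 9-month Eed-ko mice, with no overlap with any other group. In bulk RNA, more cells with HoxC RNA and more HoxC RNA per cell cannot be told apart.

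**Figure D1:**
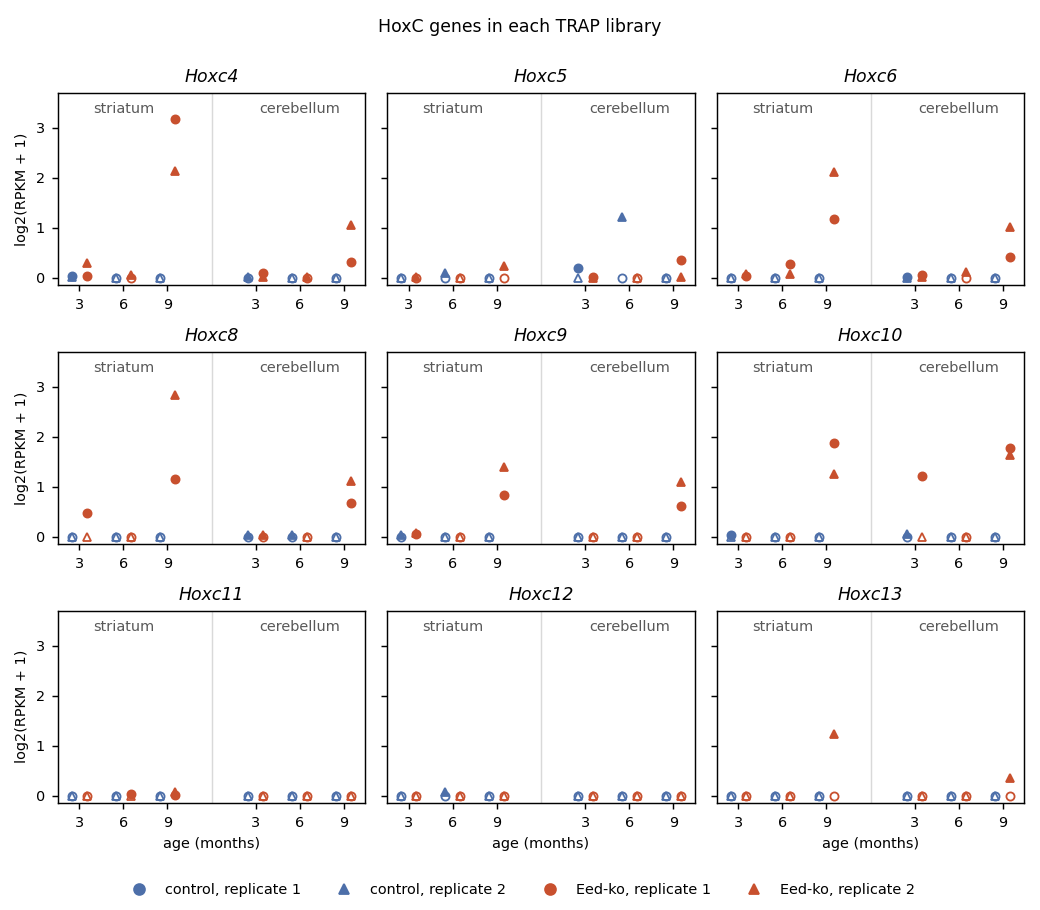
RPKM of each HoxC gene on a log2(RPKM + 1) axis in the 24 TRAP libraries, by region and age in months, with controls in blue and Eed-ko in orange. Circles are replicate 1, triangles are replicate 2, and open symbols are libraries with 0 reads. In Hoxc4, Hoxc6, Hoxc8, Hoxc9 and Hoxc10 the 4 libraries of 9-month Eed-ko mice lie above all 12 controls, whereas the highest Hoxc5 value is a control.

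Hoxc4, the most anterior HoxC gene, reached 8.02 and 3.39 RPKM in striatal 9-month Eed-ko libraries and 0.245 and 1.07 RPKM in cerebellar ones. Over the 12 TRAP controls it had a median of 0 and a highest value of 0.0307 RPKM, which was 2 reads. Low values were also present in 6 of the 8 younger Eed-ko libraries, the highest being 0.234 RPKM (20 reads) in striatal 3-month Eed-ko replicate 2. The 4 older Eed-ko libraries thus lay above every other library, although cerebellar replicate 1 rests on 14 reads and is close to that 3-month value.

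Hoxc5 did not follow that pattern. Its highest value, 1.31 RPKM (264 reads), was in cerebellar 6-month control replicate 2, and the striatal 6-month control replicate 2, which carries the same library number, 78, had 0.0743 RPKM (12 reads). Among 9-month Eed-ko libraries Hoxc5 was at 0 and 0.181 RPKM in striatum and at 0.276 and 0.00733 RPKM in cerebellum. This gene, which lies between Hoxc6 and Hoxc4, therefore overlapped between controls and Eed-ko libraries. It accounts for 290 of the 308 HoxC reads in TRAP controls.

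Hoxc6, a gene of trunk levels, was at 1.26 and 3.31 RPKM in striatum and 0.340 and 1.01 RPKM in cerebellum of 9-month Eed-ko mice. Controls had 1 read in 12 TRAP libraries. Among the 8 younger Eed-ko libraries 7 had Hoxc6 reads, at up to 0.209 RPKM (54 reads) in striatal 6-month Eed-ko replicate 1. Hoxc6 was the HoxC gene detected in the most Eed-ko libraries, 11 of 12, against 1 of 12 controls. Apart from 0.209 RPKM, the younger values did not exceed 0.0760 RPKM, and the depths of the libraries differed.

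Hoxc8, which patterns the thorax, was at 1.21 and 6.12 RPKM in striatum and 0.604 and 1.16 RPKM in cerebellum of 9-month Eed-ko mice. Its replicates in striatum were the least alike of the 5 genes that were high in all 4 libraries, with replicate 2 above replicate 1 by 5.06 times. Controls reached 0.0253 RPKM (4 reads), and striatal 3-month Eed-ko replicate 1 had 0.379 RPKM (29 reads) while replicate 2 had 0. Hoxc9, its posterior neighbour, was at 0.771 and 1.61 RPKM in striatum and at 0.535 and 1.13 RPKM in cerebellum. No other library exceeded 0.0493 RPKM of Hoxc9.

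Hoxc10, a gene of lumbar levels, was the one HoxC gene at a similar level in all 4 libraries of 9-month Eed-ko mice: 2.68 and 1.38 RPKM in striatum and 2.44 and 2.1 RPKM in cerebellum. It was also at 1.31 RPKM (78 reads) in cerebellar 3-month Eed-ko replicate 1, with 0 reads in the other replicate of that group. Controls held 3 reads in all, at up to 0.0400 RPKM. The 3-month value lies just under the lowest 9-month one, so a Hoxc10 level of this size was seen in 1 younger library.

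The posterior end of the cluster stayed near 0 with a single exception. Hoxc11 had 1 and 13 reads (0.0132 and 0.0550 RPKM) in the striatal 9-month Eed-ko libraries and none in the cerebellar ones. It also had 5 reads (0.0240 RPKM) in striatal 6-month Eed-ko replicate 1, above the lower of the 9-month values. Hoxc12 had no read in any Eed-ko library, and 3 reads in 1 control. At 3 reads the limits for Hoxc12 in the 4 older Eed-ko libraries ranged from 0.0156 to 0.130 RPKM. Hoxc13, the most posterior gene, was at 1.36 RPKM (390 reads) in striatum and 0.276 RPKM (127 reads) in cerebellum of 9-month Eed-ko replicate 2. Both replicate 1 libraries, and every other library of the series, had 0 Hoxc13 reads. With 3 reads as the limit, Hoxc13 in those 2 libraries lay under 0.0326 RPKM in striatum and 0.0546 RPKM in cerebellum.

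**Figure D2:**
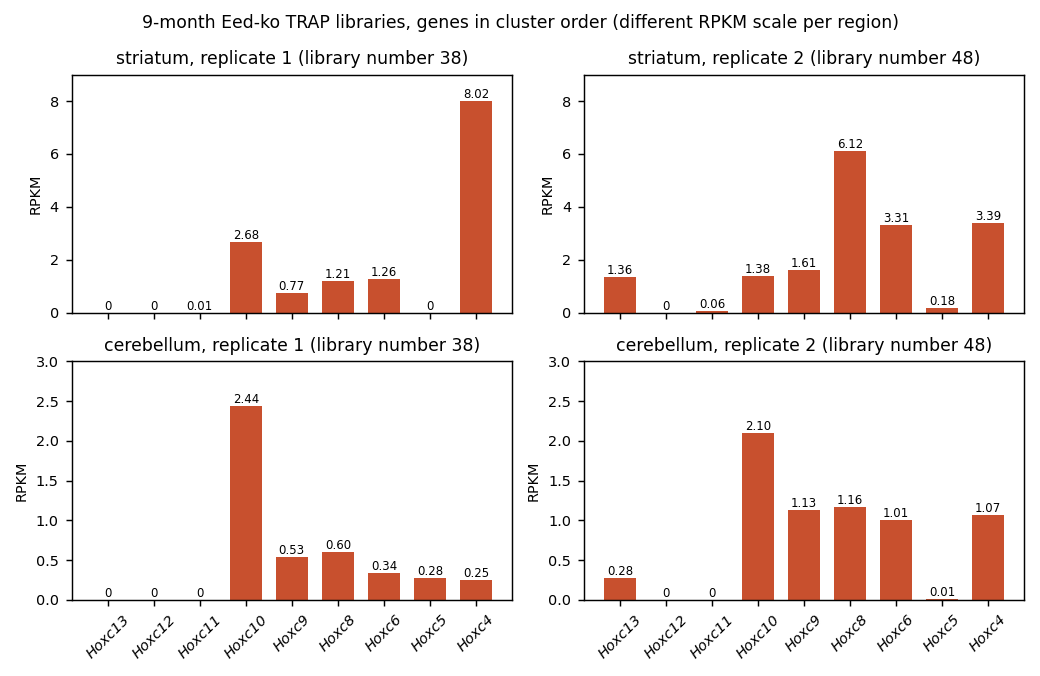
RPKM of each HoxC gene, in chromosomal order, in the 4 TRAP libraries of 9-month Eed-ko mice; bars start at 0 and the scale differs between striatum and cerebellum. The highest bar is Hoxc4 (8.02) in 1 striatal library, Hoxc8 (6.12) in the other, and Hoxc10 (2.44 and 2.1) in both cerebellar libraries.

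The order of the genes differed between libraries. In striatal replicate 1, Hoxc4 made up 57.5% of the summed HoxC RPKM and Hoxc10 19.2%. In striatal replicate 2, Hoxc8 led with 35.2%, followed by Hoxc4 with 19.5% and Hoxc6 with 19.0%. In both cerebellar libraries Hoxc10 led, with 55.0% and 31.1%, and Hoxc8 and Hoxc9 came next. The group means in striatum ran from Hoxc4 (5.70 ± 3.28 RPKM, SD, n = 2) through Hoxc8 (3.67 ± 3.47), Hoxc6 (2.29 ± 1.45), Hoxc10 (2.03 ± 0.92) and Hoxc9 (1.19 ± 0.59) to Hoxc13 (0.678 ± 0.958). Neighbours in that order did not differ beyond their spread. In cerebellum Hoxc10 (2.27 ± 0.24) stood above Hoxc8 (0.884 ± 0.396), Hoxc9 (0.830 ± 0.418), Hoxc6 (0.675 ± 0.474) and Hoxc4 (0.659 ± 0.585), and the lowest Hoxc10 value exceeded the highest of these. The last 4 did not differ beyond their spread.

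Both regions have a 9-month Eed-ko library with number 38 (replicate 1) and one with number 48 (replicate 2), and the labels do not say whether a shared number means a shared animal. Hoxc13 was present in both libraries 48 and absent from both libraries 38. Hoxc6, Hoxc8 and Hoxc9 were higher in library 48 than in 38 in both regions, and Hoxc10 was lower. The level of Hoxc4 did not follow the number, since its ratio of replicate 2 to replicate 1 was 0.422 in striatum and 4.37 in cerebellum.

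Against 9-month controls, in which all members had 0 reads, the mean Eed-ko level was compared with the limit that 3 reads over both control libraries allow. In striatum Hoxc4 was at least 625-fold higher, Hoxc8 at least 361-fold, Hoxc6 at least 245-fold, Hoxc10 at least 166-fold and Hoxc9 at least 124-fold. The bounds for Hoxc13 and Hoxc5 there, 71.5-fold and 11.4-fold, each rest on 1 of 2 libraries. In cerebellum Hoxc10 was at least 186-fold higher, Hoxc8 and Hoxc9 at least 87.4-fold and 86.8-fold, and Hoxc6 and Hoxc4 at least 72.7-fold and 72.4-fold. The lower of both libraries alone gave bounds in striatum of 371-fold for Hoxc4, 135-fold for Hoxc6, 119-fold for Hoxc8, 113-fold for Hoxc10 and 80.3-fold for Hoxc9. In cerebellum it gave 172.5-fold for Hoxc10, 59.7-fold for Hoxc8, 55.9-fold for Hoxc9, 36.6-fold for Hoxc6 and 27.0-fold for Hoxc4. The striatal Hoxc8 bound thus rests mainly on replicate 2, and the cerebellar Hoxc4 bound mainly on replicate 2 there. These bounds grow with the depth of the controls and carry no replicate test.

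For the test, limma was fitted to log2(RPKM + 1) of the 16090 genes that reached 1 RPKM in at least 2 TRAP libraries, with Benjamini-Hochberg adjustment over all of them. The pseudocount of 1 makes the fitted differences of these low genes much smaller than the bounds above. Of the 9 HoxC genes, 5 passed the filter (Hoxc4, Hoxc6, Hoxc8, Hoxc9 and Hoxc10). None of the 9 passed when the 9-month libraries were left out, so the number that passed is no support for a difference. Hoxc5, Hoxc11, Hoxc12 and Hoxc13 were not tested.

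In striatum at 9 months, 4 HoxC genes rose in Eed-ko libraries. Across all genes tested, 0.447% were called higher in this comparison. Since the 5 members entered the fit through the 9-month Eed-ko libraries in which they were high, their count is no support for a difference beside that share, here and in cerebellum. Hoxc4 rose by 2.65 ± 0.32 (SE) on the log2(RPKM + 1) scale (limma, adjusted p = 0.000926), Hoxc8 by 1.99 ± 0.38 (adjusted p = 0.0204), Hoxc6 by 1.64 ± 0.30 (adjusted p = 0.0165) and Hoxc10 by 1.56 ± 0.33 (adjusted p = 0.0392). Hoxc9 differed by 1.10 ± 0.27 without passing the threshold of 0.05 (adjusted p = 0.0616). The spread in this fit is shared with groups whose values are mostly 0, and a fit of the 9-month libraries alone called none of the 5 (Hoxc4 adjusted p = 0.29). Without control replicate 1 or control replicate 2 of that group, only Hoxc4 of the 5 was called, without Eed-ko replicate 2 both Hoxc4 and Hoxc10 were, and without Eed-ko replicate 1 Hoxc4, Hoxc6 and Hoxc8 were. With libraries scaled to homeostatic microglial genes, which moved the median difference of all genes from 0.014 to 0.33, Hoxc4 alone was called.

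In cerebellum at 9 months, Hoxc10 rose by 1.71 ± 0.33 on the same scale (limma, adjusted p = 0.0380), and 0.242% of all genes tested were called higher. Hoxc8 differed by 0.90 ± 0.38, Hoxc9 by 0.85 ± 0.27, Hoxc6 by 0.71 ± 0.30 and Hoxc4 by 0.68 ± 0.32, and their adjusted p-values from limma lay between 0.211 and 0.427. With reads recovered from the RPKM values and limma's voom, all 5 genes were called in both regions, where voom called 0.839% of all genes higher in striatum and 0.64% in cerebellum. The Hoxc10 call was lost without either control replicate or without Eed-ko replicate 1, with a pseudocount of 0.1, with scaling to homeostatic genes and in the fit of 9-month libraries alone (adjusted p from 0.0568 to 0.400).

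**Figure D3:**
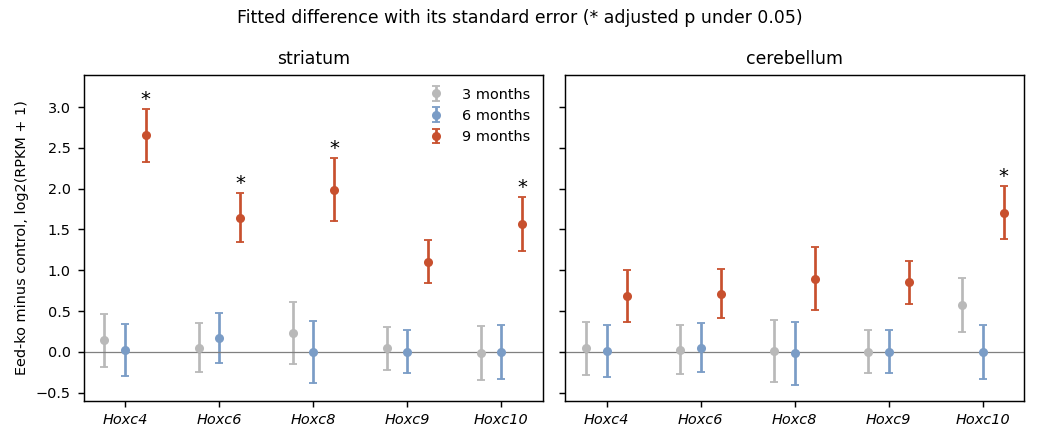
Fitted difference between Eed-ko and control on the log2(RPKM + 1) scale for the 5 HoxC genes tested, by region and age; bars are standard errors from limma and stars mark adjusted p under 0.05. At 9 months the differences run from 1.10 to 2.65 in striatum and from 0.68 to 1.71 in cerebellum, and at 3 and 6 months the largest is 0.57, which rests on 1 library.

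At 3 and 6 months limma called no HoxC gene in either region, none had an unadjusted p under 0.05, and voom called 0. The largest fitted differences at those ages were 0.57 ± 0.33 for Hoxc10 in cerebellum at 3 months, which became -0.028 without Eed-ko replicate 1, 0.23 ± 0.38 for Hoxc8 in striatum at 3 months and 0.17 ± 0.30 for Hoxc6 in striatum at 6 months. The share of all genes called higher at these ages was 0% and 0.0124% in striatum and 0.00622% and 0.0373% in cerebellum. Averaged over the 3 ages, limma called no HoxC gene, although 5 in striatum and 1 in cerebellum had an unadjusted p under 0.05 and voom called 1 in striatum, Hoxc6, and 0 in cerebellum. Over all genes tested, 12.3% in striatum and 14.8% in cerebellum had an unadjusted p under 0.05, and voom called 0.0435% higher in striatum. The single gene in cerebellum is thus near the background share. Hoxc4 differed by 0.94 ± 0.19 in striatum (limma, adjusted p = 0.0578, with 0.0746% of all genes called higher) and Hoxc10 by 0.76 ± 0.19 in cerebellum (adjusted p = 0.0825, with 0.124% called higher). Without striatal 9-month Eed-ko replicate 1 the average called 1 HoxC gene in striatum, Hoxc8, and without replicate 2 it called Hoxc4.

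Whether the Eed-ko difference itself changed with age was tested over all 3 ages. In striatum Hoxc4 passed this test (limma, adjusted p = 0.0473), and 0.0559% of all genes tested did so. Its difference was 2.51 ± 0.45 larger at 9 than at 3 months on the log2(RPKM + 1) scale. That call was lost with voom (adjusted p = 0.584), with a pseudocount of 0.1 (0.240), with libraries scaled to homeostatic microglial genes (0.521), with the replicate block (0.0803), and in 10 of the 12 fits that left out 1 striatal library (0.0646 to 0.210). In cerebellum limma and voom called 0 HoxC genes, Hoxc10 came nearest and was the 1 with an unadjusted p under 0.05 (limma, adjusted p = 0.406), where 7.45% of all genes had one and 0.0373% were called.

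The difference of the Eed-ko effect between regions, averaged over ages, passed limma's test for none of 16090 genes, so 0% were called. Of these 1380 (8.58%) had an unadjusted p under 0.05, 1 of them a HoxC gene (Hoxc4), and voom called 0. For Hoxc4 the effect was 0.69 ± 0.26 smaller in cerebellum than in striatum (adjusted p = 0.478), and for Hoxc10 it was 0.24 ± 0.27 larger (adjusted p = 0.849). Averaged over the 3 ages within Eed-ko libraries, Hoxc4 was lower in cerebellum than in striatum by 0.70 ± 0.19 on the log2(RPKM + 1) scale (limma, adjusted p = 0.00595), a comparison in which 19.8% of all genes were called lower. This average rests mainly on 9 months, where group means of Hoxc4 were 5.70 RPKM in striatum and 0.659 RPKM in cerebellum. At 3 months they were 0.129 and 0.0373 RPKM, and at 6 months 0.0180 and 0.00744 RPKM. Cell type markers also differed between regions, in Eed-ko and in control libraries. All 17 homeostatic microglial genes were called lower in cerebellar Eed-ko libraries, where they summed to between 959 and 3479 RPKM against 3950 to 6715 RPKM in striatal ones. Of 7 astrocyte genes 6 were called higher there, and of 11 neuronal genes 6 were called higher and 2 lower. Over all genes tested, 6170 of 16090 were called in either direction in Eed-ko. In controls, 17 of 17 homeostatic, 6 of 7 astrocyte and 6 of 11 neuronal genes were called between regions in either direction. Homeostatic sums in controls were 1638 to 3440 RPKM in cerebellum and 5809 to 7060 RPKM in striatum. Hoxc4, near 0 in controls, was not called between regions there (-0.0062 ± 0.19, limma, adjusted p = 0.987). The part of these markers in the Hoxc4 difference was not tested. Hoxc6, Hoxc8, Hoxc9 and Hoxc10 were not called between regions (adjusted p from 0.121 to 0.632). In controls limma and voom called 0 HoxC genes between regions and 0 had an unadjusted p under 0.05, whereas 37.1% of all genes were called in either direction. The Hoxc4 call between regions was lost with a pseudocount of 0.1 and with voom. Without striatal 9-month Eed-ko replicate 1, 3 HoxC genes were called between regions, and without cerebellar 3-month Eed-ko replicate 2, there were 2.

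Without any model, separation of the libraries was counted. Hoxc4, Hoxc6, Hoxc8, Hoxc9 and Hoxc10 were higher in all 4 libraries of 9-month Eed-ko mice than in all 12 TRAP controls, as were 0.267% of the genes tested and 0.135% of all genes with a value. Hoxc5 and Hoxc13 were not, because Hoxc5 was high in a control and Hoxc13 was at 0 in replicate 1. In striatum alone Hoxc11 joined them on 14 reads, where the background was 3.81% of all genes with a value.

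The 3 noncoding genes of the cluster that have values in the table were at or near 0. Gm36878 and Gm29905, long noncoding genes that the RefSeq table also places between Hoxc9 and Hoxc6, were not analysed here. Mir196a-2 and Mir615, whose small products the RNA protocol is not made to capture, were at 0 in all 28 libraries. Hotair, a long noncoding RNA listed under its older symbol Gm16258, had a single value of 0.00745 RPKM in 1 striatal control. No read of it was found in any Eed-ko library. Of the genes that flank it, Hoxc12 also had no read in Eed-ko libraries and Hoxc11 reached at most 0.0550 RPKM. Hoxc10, on the other side of Hoxc11, was higher.

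Genes beyond the ends of the cluster did not pass the test at 9 months in either region. Of 10 neighbours, 9 were tested and 0 were called by limma or voom (2 had an unadjusted p under 0.05 in striatum and 1 in cerebellum), with a median difference of -0.19 in striatum and -0.29 in cerebellum against 0.014 and 0.011 over all genes tested. Over all 16090 genes tested, 2675 in striatum and 1858 in cerebellum had an unadjusted p under 0.05. The neighbours were expressed in controls as well. Cbx5, the heterochromatin protein HP1 alpha, was at 30.3 ± 5.08 RPKM in striatal controls and 44.6 ± 2.71 in Eed-ko (SD, n = 2, limma adjusted p = 0.186). Smug1, a DNA repair glycosylase next to the Hoxc4 end, was at 5.87 ± 1.00 and 12.0 ± 5.05 RPKM (adjusted p = 0.255). Calcoco1, a coactivator and autophagy receptor beyond the Hoxc13 end, was at 23.8 ± 6.03 and 13.4 ± 3.51 RPKM (adjusted p = 0.407). Nfe2 was listed at 0 in all 8 libraries of that age.

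The other Hox clusters gave a reference for size. Summed over its 9 genes, HoxD reached 8.94 and 12.2 RPKM in striatal and 6.10 and 12.1 RPKM in cerebellar libraries of 9-month Eed-ko mice. HoxA with 11 genes reached 4.13 and 5.88 RPKM in striatum and 1.42 and 2.92 RPKM in cerebellum, and HoxB with 10 genes 1.71 and 2.07 RPKM in striatum and 0.0324 and 0.810 RPKM in cerebellum. HoxC was the highest of the 4 clusters in both striatal libraries, and HoxD in both cerebellar ones. Cluster HoxB alone overlapped with the controls in cerebellum, through Hoxb4. Of the tested genes of these clusters, Hoxd8 rose by 2.97 ± 0.28 on the log2(RPKM + 1) scale in striatum (limma, adjusted p = 7.95e-05) and 2.85 ± 0.28 in cerebellum (adjusted p = 0.000151), and Hoxd13 and Hoxa10 rose in striatum by 2.09 ± 0.27 and 2.00 ± 0.27. Limma called Hoxa7 and Hoxb4 in neither region, and Hoxd13 and Hoxa10 not in cerebellum. Over all genes tested, 0.447% were called higher in striatum and 0.242% in cerebellum. Outside the 9-month Eed-ko libraries, Hoxd8, Hoxd13 and Hoxa10 reached at most 0.764, 0.543 and 0.184 RPKM. They thus entered the fit only through the libraries in which they were high, and their number is no support for a difference.

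**Figure D4:**
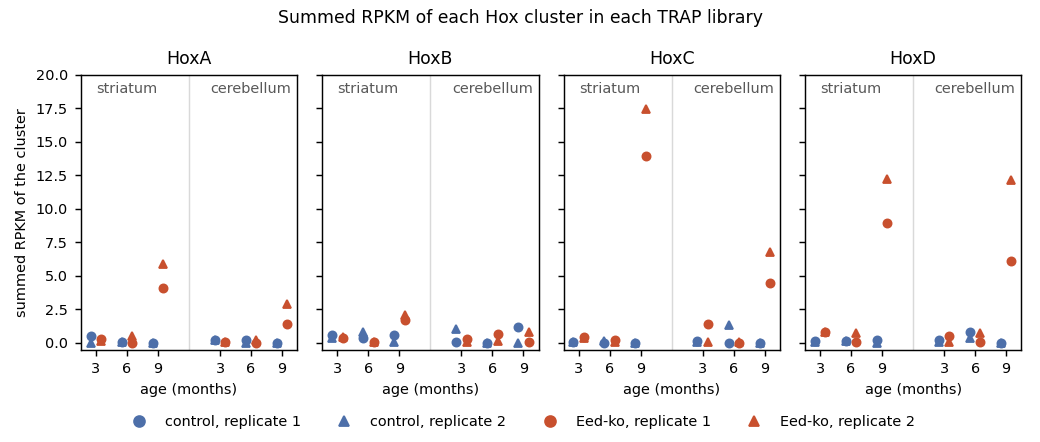
Summed RPKM of the HoxA, HoxB, HoxC and HoxD genes in each of the 24 TRAP libraries, by region and age in months; blue is control, orange is Eed-ko, circles are replicate 1 and triangles replicate 2. HoxC stands at 13.95 and 17.40 in striatum and at 4.44 and 6.76 in cerebellum of 9-month Eed-ko mice, against at most 1.42 elsewhere.

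RNA of genes whose proteins bind DNA together with Hox proteins was already present in controls. The 9 listed genes summed to between 92.7 and 118 RPKM in striatal TRAP controls of all ages. In cerebellar ones the sums were 62.8 to 78.9 RPKM, and in tissue RNA 76.5 to 181 RPKM. Which cells this RNA came from was not tested. None of the 8 tested Pbx, Meis and Pknox genes was called at 9 months by limma or voom in either region (2 in each had an unadjusted p under 0.05), with medians of 0.18 in striatum and 0.080 in cerebellum. Pbx3 was at 13.9 ± 4.74 RPKM in striatal controls and 22.2 ± 7.63 in Eed-ko (limma, adjusted p = 0.228), and Meis2 at 22.0 ± 9.09 and 39.4 ± 9.79 (adjusted p = 0.254). Polycomb genes and histone H3 lysine 27 demethylases did not pass either: 0 of 22 were called at 9 months by limma or voom in each region (5 in striatum and 2 in cerebellum had an unadjusted p under 0.05), with medians of 0.25 and 0.11. Ezh2, the catalytic subunit, was at 2.15 ± 0.35 and 2.68 ± 1.02 RPKM in striatum, and Suz12, the partner of Eed, at 31.4 ± 0.09 and 32.0 ± 4.75. Jarid2, which helps to recruit the complex, came nearest in striatum (15.9 ± 2.33 and 28.8 ± 3.50 RPKM, adjusted p = 0.0808), followed by Eed itself (17.8 ± 6.29 and 31.8 ± 8.35, adjusted p = 0.0921). Among 5 tested Trithorax genes, whose products oppose Polycomb, limma and voom called 0 (0 had an unadjusted p under 0.05 in striatum and 1 in cerebellum). The unadjusted counts of these lists stand beside 2675 of all 16090 genes tested in striatum at 9 months and 1858 in cerebellum.

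Across the 24 TRAP libraries, the genes whose log2(RPKM + 1) followed the summed HoxC level most closely included Hoxd8 (r = 0.94), Hoxa10 (0.94), Hoxd13 (0.91), Tbx15 (0.90), Cdkn2a (0.88), Cd209d (0.86) and Gata4 (0.86). For Hoxc4 alone they included Hoxa10 (0.95), Cdkn2a (0.95), Dmrt3 (0.92) and Hoxd13 (0.90). Of the genes named, all but Cdkn2a and Cd209d encode transcription factors of embryonic patterning, and Cdkn2a encodes cell cycle inhibitors. These values describe 24 libraries that share 4 high ones, so they rest on the 9-month Eed-ko group. In that group Tbx15 ranged from 2.96 to 11.7 RPKM, against at most 1.66 in the other 20 libraries, and Cdkn2a from 0.191 to 2.96 RPKM, against at most 0.346. Not every gene named was present in all 4 of these libraries. Dmrt3 ranged from 0 to 2.02 RPKM among them and Gata4 from 0 to 1.33 RPKM.

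Several marker lists differed between the striatal Eed-ko and control libraries of 9 months, and their part in the HoxC result was not tested. The 17 homeostatic microglial genes summed to 6427 and 6636 RPKM in controls and to 3950 and 4725 RPKM in Eed-ko, with a median difference of -0.52 on the log2(RPKM + 1) scale. The 9 mural and fibroblast genes summed to 3.77 and 3.60 RPKM in controls and 19.0 and 12.2 RPKM in Eed-ko, with Lum at 0 in all 4 libraries. The 6 endothelial genes summed to 2.61 and 2.55 RPKM in controls and 7.16 and 6.30 RPKM in Eed-ko. The sums of these lists did not overlap between the groups. With 2 libraries a side, sums can separate without a difference, and the share of all genes that do so was not counted. Oligodendrocyte, astrocyte, and monocyte, neutrophil and lymphocyte sums were also higher in both Eed-ko libraries. The 9 oligodendrocyte genes summed to between 176 and 181 RPKM in controls and between 203 and 313 RPKM in Eed-ko (median difference 0.56). The 7 astrocyte genes summed to between 54.9 and 59.8 RPKM and between 65.3 and 80.8 RPKM (median difference 0.30). The 9 genes of monocytes, neutrophils and lymphocytes summed to between 2.45 and 3.98 RPKM and between 3.99 and 12.6 RPKM, so these ranges nearly met. The neuronal and border macrophage sums overlapped. In striatal controls of all ages, mural and fibroblast sums reached 46.5 RPKM and endothelial sums 20.4 RPKM. Oligodendrocyte sums reached 290 RPKM there, astrocyte sums 90.3 RPKM, and those of monocytes, neutrophils and lymphocytes 7.16 RPKM. Homeostatic sums were 4194 and 4809 RPKM in the striatal 6-month Eed-ko libraries, where HoxC sums were 0.233 and 0.0832 RPKM. Limma and voom called 0 genes of these 8 lists at 9 months, while 3 microglial, 3 oligodendrocyte, 2 astrocyte, 1 neuronal, 1 mural or fibroblast and 1 monocyte, neutrophil or lymphocyte gene had an unadjusted p under 0.05. Over all 16090 genes tested, 2675 had one.

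In cerebellum at 9 months, where HoxC genes were also high, the oligodendrocyte and neuronal sums were higher in both Eed-ko libraries. The oligodendrocyte list summed to between 186 and 196 RPKM in controls and between 223 and 230 RPKM in Eed-ko, and the 11 neuronal genes to between 1534 and 1585 RPKM and between 1695 and 1772 RPKM. Their median differences were 0.041 and 0.048, and limma and voom called 0 of these genes (3 and 2 had an unadjusted p under 0.05). Over all 16090 genes tested, 1858 had one. Cerebellar controls of all ages reached 326 RPKM for the oligodendrocyte list and 2018 RPKM for the neuronal list. The mural and fibroblast sums overlapped (8.46 and 28.0 RPKM in controls, 25.4 and 14.7 in Eed-ko), as did the endothelial, astrocyte, border macrophage, homeostatic, and monocyte, neutrophil and lymphocyte sums. The highest mural and fibroblast sum in striatum, 66.4 RPKM, was in 6-month Eed-ko replicate 1, whose summed HoxC level was 0.233 RPKM. Of 4 keratinocyte genes, Krt5 and Krt14 were at 0 in all 8 libraries of 9 months. Through Krt1 and Krt10 that list summed to between 0.938 and 2.88 RPKM in striatal controls and between 1.64 and 6.57 RPKM in striatal Eed-ko. In cerebellum it summed to between 2.12 and 2.71 RPKM in controls and between 2.79 and 5.13 RPKM in Eed-ko, without overlap, and limma and voom called neither gene in either region (0 had an unadjusted p under 0.05). The muscle and skeletal list summed to at most 1.03 RPKM at that age. The part of these lists in the cerebellar HoxC values was not tested.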

How the data were processed

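The authors deposited 1 table of RPKM with a column per library. Per the submitters' processing notes, bcl2fastq, TopHat2 2.1.0, HTSeq 0.6.0 and DESeq2 were used with the mm9 build, and their roles and settings are not given in the sources used here. Of 97 samples in the series, 28 have values in that table and 69 were not analysed here. Of 37991 genes, 181 without a value were left out. Read numbers and depths were recovered from the RPKM values: 32858 of 32861 genes above 0 gave whole reads within a tolerance of 0.0001. These served for depth, for limits of 3 reads and for an alternative test.

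Genes at 1 RPKM or more in at least 2 libraries were tested on log2(RPKM + 1) with limma 3.58.1 (R 4.3.3), with an intensity trend and Benjamini-Hochberg adjustment at 0.05. All 24 TRAP libraries entered 1 fit with a mean per group of region, age and genotype (12 residual degrees of freedom), and tissue RNA was compared with 9-month control TRAP in another fit (14186 genes). No HoxC gene passed the filter in the latter. The fit was also run on simulated data with normal noise and known changes. The changed genes were drawn at random from all genes tested, so that run does not speak to genes near 0 in most groups. All 9 HoxC genes were described, lists were summarised by counts and medians with up to 4 genes of smallest adjusted p, and likeness was Pearson's r; 1 gene that met the likeness rule is not reported here. The members and lists were chosen with earlier results of these data known. All 9 identifiers matched the reference gene names. Figures used matplotlib 3.10.9.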

Additional observations from a re-analysis of the deposited data

Results flagged for a closer look

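Hoxc4 in striatum met the criterion that an effect under the same contrast differs between ages: the difference between Eed-ko and control changed over 3, 6 and 9 months (limma, adjusted p = 0.0473). Hoxc4 was at 8.02 and 3.39 RPKM in 9-month Eed-ko libraries and at most at 0.234 RPKM in Eed-ko libraries of 3 and 6 months. The call sits close to the threshold and was kept in 4 of 18 alternatives. Groups of 2 libraries are too small to look for single outlying libraries.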

How the results depend on the processing

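The number of HoxC genes called was the same in all alternatives for the difference between regions of the Eed-ko effect, for the effect averaged over ages in cerebellum, for its change with age there and for regions in controls (0 in each). In striatum at 9 months it was 4; it was 1 with scaling to homeostatic genes, 0 in the 9-month libraries alone, and 1 to 3 with 1 library left out. In cerebellum at 9 months it was 1; it was 0 with a pseudocount of 0.1, with scaling to homeostatic genes and in 9-month libraries alone, 2 without a filter, 5 with voom, and 0 to 1 with 1 library left out. The averaged effect in striatum gave 0, but 1 without a filter, 1 with voom, and 0 to 1 with 1 library left out. The change with age in striatum gave 1; it gave 0 with a pseudocount of 0.1, with scaling to homeostatic genes, with the replicate block and with voom, 2 without a filter, and 0 to 1 with 1 library left out. Between regions in Eed-ko 1 was called, against 0 with a pseudocount of 0.1 and with voom, and 1 to 3 with 1 library left out. Why these counts moved was not tested. The voom fit, the fit of 9-month libraries alone and the fit without them were chosen after seeing the data.

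Directions turned for 5 differences, none of them called. With scaling to homeostatic genes, Hoxc9 was 0.056 for the regional difference of the effect and 0.054 between regions in Eed-ko. With 1 library left out, the cerebellar 3-month difference ran from -0.012 to 0.026 for Hoxc8, and the difference of Hoxc10 between regions in controls ran from -0.0049 to 0.014. Hoxc10 at 3 months in cerebellum, at 0.57, ran from -0.028 without Eed-ko replicate 1 to 1.18 without replicate 2. The cause was not tested. No HoxC gene passed the filter at 3 months alone with a lane block, without the 9-month libraries, or in the comparison of TRAP with tissue, so these gave no value.

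Replicate numbers were not shown to pair libraries: deviations of same-numbered Eed-ko and control libraries correlated at -0.049 to 0.14 over genes, and those of libraries with the same library number in both regions at 0.032 to 0.18. With the replicate block, 4 HoxC genes were called in striatum and 1 in cerebellum at 9 months, and the Hoxc4 change with age had an adjusted p of 0.0803. Depth limits what can be said of low genes: 3 reads of Hoxc13 are worth 0.0326 RPKM in striatal 9-month Eed-ko replicate 1 and 0.0104 RPKM in replicate 2.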
